A study of Mus musculus with 5 samples.

Results

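Hepatocytes clear organic ions, bile salts, hormones and drugs from the blood of the sinusoid through membrane carriers of the *Slco*, *Slc10*, *Slc22* and *Slc47* families. Their transcripts were measured in the livers of mice given CSF1-Fc, a fusion of pig colony-stimulating factor 1 (CSF1, the growth factor of macrophages) with an antibody Fc region, and in livers of mice given phosphate-buffered saline (PBS). Every gene whose symbol belongs to an *Slco* subfamily, to *Slc10a*, to *Slc22a* or to the pair *Slc47a1* and *Slc47a2* was taken, with 1 gene set aside. This gave 43 carriers out of 18820 genes that had a row with a single symbol on the array, and family genes without such a row were not analysed here. The carriers were therefore chosen by name and not by their values. Liver RNA came from adult C57BL/6 mice, with 3 livers from mice that received CSF1-Fc and 2 from mice that received PBS, and each liver was measured on its own Affymetrix Mouse Gene 1.1 ST array. Both groups had subcutaneous injections on 4 consecutive days and were culled on day 5. The labels give no sex for these mice.

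The organic anion transporting polypeptides (OATPs, *Slco* genes) exchange bulky anions such as bilirubin, bile salts, thyroid hormones and statins across the sinusoidal membrane without using the sodium gradient. The sodium taurocholate cotransporting polypeptide (NTCP, *Slc10a1*) uses that gradient to bring conjugated bile salts back from portal blood. The *Slc22* family holds the organic anion and organic cation transporters, and the multidrug and toxin extrusion proteins (MATEs, *Slc47* genes) send organic cations out of the cell into bile or urine in exchange for protons. Uptake carriers of the hepatocyte are known to be transcribed under liver-enriched factors such as HNF1 and HNF4 and under bile acid and xenobiotic receptors.

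All values are log2 of the deposited normalized intensities, so that a difference of 1 is a change by a factor of 2. A difference was called when limma's p, adjusted by the Benjamini-Hochberg method over all 35556 rows of the table, was below 0.05. A probe's intensity also depends on its sequence, so the tests compared values between livers. Cutoffs on intensity, sums over marker genes and levels of different genes set side by side are only a rough guide to abundance. The p-values measure only the spread between these 5 samples, part of which may be technical. Over all rows, arrays correlated at 0.983 to 0.99 within CSF1-Fc livers, at 0.991 within PBS livers and at 0.96 to 0.973 between the groups.

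Several of the main hepatic carriers were lower in CSF1-Fc livers, and no carrier was called higher. Of the 43 carriers, 8 were lower (3.95% of all genes were called lower), 0 were higher (8.34% of all genes were called higher) and 35 did not pass the test. At an unadjusted limma p below 0.05 there were 2 higher and 17 lower. Among all 18820 genes, 2484 were higher and 2735 lower at that p. Later unadjusted counts from this fit stand beside these numbers. The carriers called lower were *Slco1a4*, *Slco1b2*, *Slco2b1*, *Slc22a7*, *Slc22a4*, *Slc22a30*, *Slc22a23* and *Slc47a1*, by factors of 1.59 to 2.96. For 25 carriers every CSF1-Fc value was below every PBS value (29.3% of all genes), for 3 every CSF1-Fc value was above (18.2% of all genes), and for 15 the groups overlapped. The median log2 fold change was -0.21 over the 43 carriers and -0.08 over all genes. The 43 include carriers known from kidney, gut, brain and testis, and 25 of the 43 had a mean log2 intensity under 5 over the 5 arrays. Of those 25, 0 were called by limma, with 4 lower and 0 higher at an unadjusted p below 0.05. Adjusting the same p over the 18820 genes, an alternative added after seeing the data, gave 11 carriers lower (5.31% of all genes), these 8 with *Slco1a1*, *Slc10a5* and *Slc22a15*. A refit of limma on 1 mean value per gene, which changed the moderation of the variances as well as the adjustment, gave 14 (9.08% of all genes), those 11 with *Slc10a1*, *Slc22a12* and *Slc22a18*.

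The 18 carriers with a mean log2 intensity of 5 or more over all arrays held all 8 calls, where 6.62% of the 10771 genes at such levels were called lower and 13.4% were called higher. All CSF1-Fc values were below PBS for 13 (32.5% of such genes) and above PBS for 3 (26.5%). The changes were negative for 15 and positive for 3, with a median of -0.68 against -0.06 over the 10771 genes. A mean of 8 or more in either group was reached by 11 carriers, of which 6 were called lower and 10 had no overlap between the groups. Among all 4977 genes at that level, 10.1% were called lower and 12.7% higher, 39.1% had every CSF1-Fc value below PBS and 24.5% had every one above. The median was -0.69 for the 11 carriers and -0.11 for the 4977 genes. Among the 11, *Slc22a7* reached that level only in PBS livers, so these counts describe the bright carriers and do not test them.

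**Figure D1:**
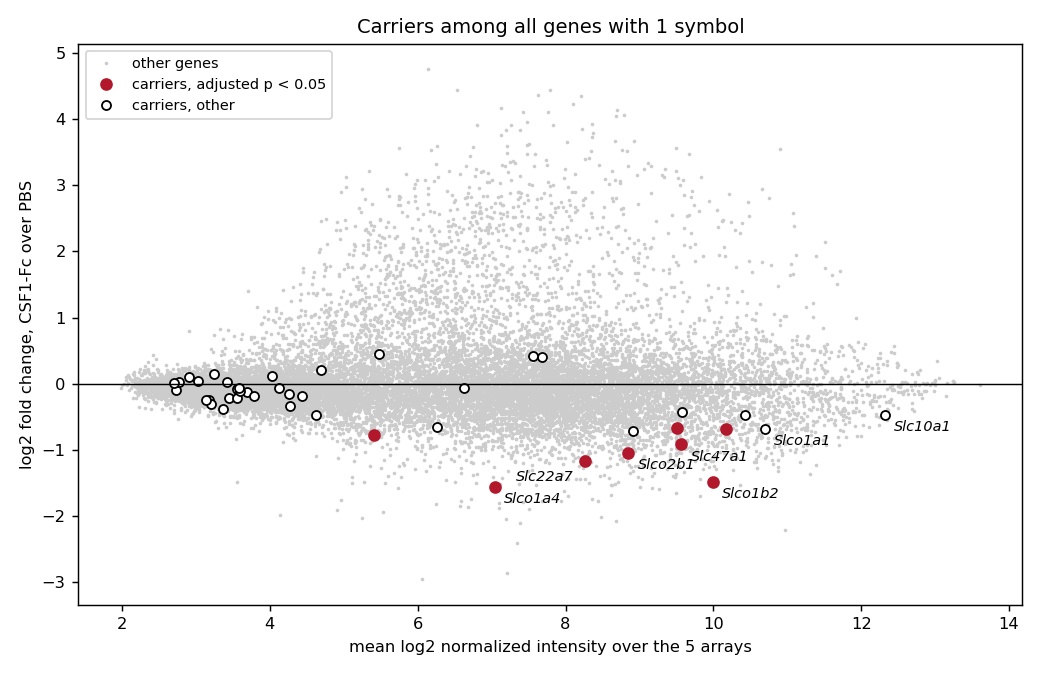
Log2 fold change of CSF1-Fc over PBS (y axis) against the mean log2 normalized intensity over the 5 arrays (x axis) for 18820 genes, with the 43 carriers as large circles, filled in red where limma's adjusted p was below 0.05. The 8 called carriers all lie below 0, and the carriers with a mean under 5 lie close to the zero line, between -0.48 and 0.20.

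Among the 15 OATPs, *Slco1b2*, *Slco1a4* and *Slco2b1* were called lower and 0 were called higher, where 3.95% of all genes were lower and 8.34% higher. *Slco1b2*, the mouse counterpart of the human OATP1B carriers, takes up unconjugated bile acids, bilirubin and statins and is found almost wholly in hepatocytes. Its log2 intensities were 9.24, 9.14 and 9.81 in CSF1-Fc livers, against 10.80 and 10.96 in PBS livers. The groups were separate, with CSF1-Fc replicate 3 the nearest to PBS. Its log2 fold change was -1.49 (standard error 0.22, 95% interval -2.02 to -0.95, limma adjusted p = 0.0105), a level 2.80 times lower. *Slco1a4* transports cardiac glycosides and bile salts in the liver and is also a carrier of the blood-brain barrier. Its log2 intensities were 5.99, 6.43 and 6.83 in CSF1-Fc livers, against 8.0 and 7.96 in PBS livers. Here the CSF1-Fc livers spread over 0.84 log2 units and the PBS livers over 0.04, and the groups were still far apart. The log2 fold change of *Slco1a4* was -1.57 (standard error 0.25, 95% interval -2.16 to -0.97, limma adjusted p = 0.0127), which is 2.96 times lower and the most negative change among the 43.

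*Slco2b1* carries steroid sulfates and is used in liver and in many other organs. It stood at 8.44, 8.22 and 8.64 in CSF1-Fc livers, against 9.35 and 9.60 in PBS livers, without overlap. Its log2 fold change of -1.05 (standard error 0.17, 95% interval -1.46 to -0.63, limma adjusted p = 0.0148) is 2.07 times lower. *Slco1a1*, a sinusoidal carrier of bile salts and steroid conjugates that male mice express above females, was at 10.30, 10.28 and 10.69 in CSF1-Fc livers, against 11.06 and 11.16 in PBS livers. These groups did not overlap either, but the log2 fold change of -0.69 (standard error 0.17, 95% interval -1.10 to -0.28) had a limma adjusted p of 0.0598. It was 0.0439 with the same p adjusted over genes and 0.0146 in the refit on 1 value per gene.

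*Slco2a1*, the prostaglandin carrier, which endothelial cells express, was the only carrier with a mean of 8 or more whose groups overlapped. It was at 9.45, 9.10 and 9.69 in CSF1-Fc livers, against 9.57 and 10.10 in PBS livers. Its log2 fold change of -0.43 (95% interval -0.996 to 0.146, limma adjusted p = 0.350) came with PBS livers 0.53 log2 units apart. *Slco3a1*, a widely expressed OATP, was at 6.45, 6.57 and 6.77 in CSF1-Fc livers and at 6.69 and 6.64 in PBS livers. The groups overlapped, and its difference of -0.07 has a 95% interval of -0.41 to 0.28 (limma adjusted p = 0.843). The other 9 OATPs were dim, with means of 2.71 to 4.02 and log2 fold changes of -0.39 to 0.11. They were the thyroid hormone carriers *Slco1c1* and *Slco4a1*, the kidney carriers *Slco1a6* and *Slco4c1*, the intestinal carrier *Slco1a5*, *Slco5a1*, and the testis members *Slco6b1*, *Slco6c1* and *Slco6d1*.

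**Figure D2:**
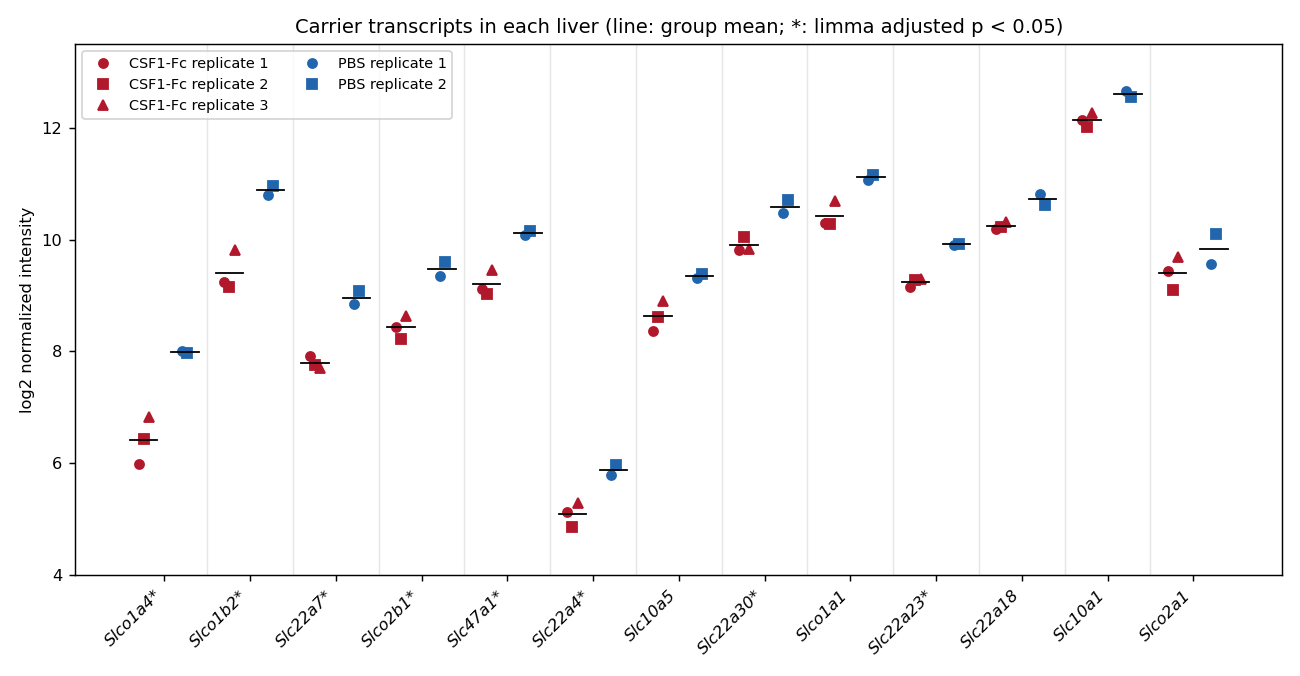
Log2 normalized intensity (y axis) of the 13 carriers that were called or had a mean of 8 or more in either group, with CSF1-Fc livers in red left of PBS livers in blue, 1 point per liver, marker shape for the replicate, and a line at each group mean. An asterisk marks a limma adjusted p below 0.05, and *Slco2a1* is the only one of the 13 in which points of the groups overlap.

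The *Slco1* genes lie side by side on chromosome 6, in the order *Slco1c1*, *Slco1b2*, *Slco1a4*, *Slco1a1*, *Slco1a6* and *Slco1a5* among the genes measured here. The 3 in the middle of this row were measured above a mean log2 of 5, and the 3 at its ends were dim in both groups. The outer genes *Slco1c1*, *Slco1a6* and *Slco1a5* had log2 fold changes of -0.22, -0.39 and -0.21, and none of them passed the test. Within the row the neighbours *Slco1a4* and *Slco1a1* were compared directly, a pair chosen after their values were seen. Taken within each liver, *Slco1a4* minus *Slco1a1* was -4.31, -3.85 and -3.86 log2 units in CSF1-Fc livers, against -3.06 and -3.20 in PBS livers. *Slco1a4* thus changed by -0.88 log2 units more than *Slco1a1*. An exact permutation test, whose two-sided p doubles the smaller one-sided p, gave p = 0.2. This is the smallest that this form of the test can give with 3 livers against 2.

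On chromosome 19 the measured *Slc22* genes run in the order *Slc22a19*, *Slc22a26*, *Slc22a27*, *Slc22a30*, *Slc22a8* and *Slc22a6*. Only *Slc22a30* was above a mean log2 of 5. A called and a dim gene also stand next to each other on chromosome 11, as *Slc47a1* beside *Slc47a2* and *Slc22a4* beside *Slc22a21*.

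**Figure D3:**
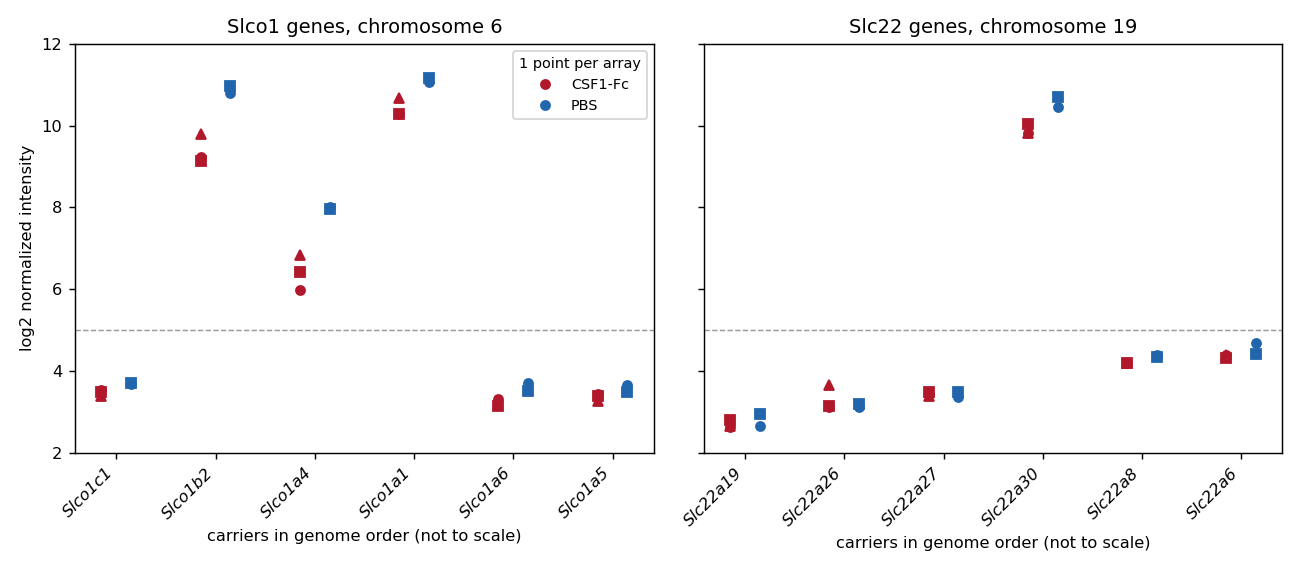
Log2 normalized intensity (y axis) in each liver for the measured carriers of the *Slco1* row on chromosome 6 (left) and of the *Slc22* row on chromosome 19 (right), in genome order and not to scale, with CSF1-Fc in red left of PBS in blue and a dashed line at 5. In the left panel *Slco1b2*, *Slco1a4* and *Slco1a1* are above the line with CSF1-Fc below PBS, and in the right panel only *Slc22a30* is.

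Promoter letters are shown for *Slco1b2*, *Slco1a4* and *Slc10a1*, which serve the same sinusoidal membrane. Their log2 fold changes were -1.49, -1.57 and -0.47. RefSeq promoter entries on GRCm38.p6 were found for 37 of the 43 carriers, and the 250 bases before the annotated start were searched on both strands. The searched letters, chosen after the values were seen, were GTTAAT (a half-site of HNF1), AGGTCA (a half-site of nuclear receptors), TTGCNNAA (a core of C/EBP factors) and TTCNNNGAA (the form that STAT factors bind). Capitals mark the matches, no match overlaps another in the sequences shown, and each sequence reads 5′ to 3′ on the strand of its gene.

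*Slco1b2* (chr6:141629268-141629517, plus strand): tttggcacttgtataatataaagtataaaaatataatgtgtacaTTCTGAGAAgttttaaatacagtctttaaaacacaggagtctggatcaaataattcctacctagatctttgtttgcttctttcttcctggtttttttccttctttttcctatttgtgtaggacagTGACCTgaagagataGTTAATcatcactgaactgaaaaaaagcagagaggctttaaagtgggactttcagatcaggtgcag
*Slco1a4* (chr6:141856221-141856470, minus strand): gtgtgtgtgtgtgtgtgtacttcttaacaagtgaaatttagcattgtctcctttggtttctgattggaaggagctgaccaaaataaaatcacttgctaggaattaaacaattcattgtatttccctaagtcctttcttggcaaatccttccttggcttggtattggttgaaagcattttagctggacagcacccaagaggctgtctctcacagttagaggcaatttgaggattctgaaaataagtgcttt
*Slc10a1* (chr12:80968706-80968955, minus strand): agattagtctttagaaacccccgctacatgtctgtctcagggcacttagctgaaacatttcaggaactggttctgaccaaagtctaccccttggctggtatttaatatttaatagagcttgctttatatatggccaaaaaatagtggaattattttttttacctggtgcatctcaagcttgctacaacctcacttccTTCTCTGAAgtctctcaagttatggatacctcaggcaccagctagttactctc

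The *Slco1b2* window held GTTAAT from 66 to 61 bases before the start, the nuclear receptor half-site (as TGACCT) from 81 to 76 and a TTCNNNGAA match from 206 to 198. The *Slc10a1* window held a TTCNNNGAA match from 53 to 45 bases before the start and none of the other letters. *Slco1a4*, with the most negative change, held none of the 4 in this window. Of 27025 mouse promoters of the same length, 6.54% held GTTAAT, 13.8% AGGTCA, 9.55% TTGCNNAA and 7.14% TTCNNNGAA. Of the 13 carriers that were called or had a mean of 8 or more, 10 had a promoter entry, and 1, 2, 1 and 2 of these held the 4 motifs in that order. The other matches were 2 copies of AGGTCA or its reverse in *Slco1a1*, at 134 to 129 and at 24 to 19 bases before the start, and TTGCNNAA in *Slc22a30* from 39 to 32. A match of letters is a description and says nothing about binding.

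In the *Slc10* family 0 of 6 genes passed limma's test (3.95% of all genes were lower and 8.34% higher). At an unadjusted p below 0.05, 1 was higher and 2 were lower, against 2484 and 2735 of all 18820 genes. *Slc10a1*, the main carrier for sodium-dependent return of conjugated bile salts, was at 12.14, 12.01 and 12.27 in CSF1-Fc livers, against 12.66 and 12.55 in PBS livers. The groups did not overlap, and the log2 fold change was -0.47 (standard error 0.14, 95% interval -0.80 to -0.14, limma adjusted p = 0.100). Its limma adjusted p was 0.0766 with the same p adjusted over genes and 0.0399 in the refit on 1 value per gene. *Slc10a5*, a liver and kidney member with no settled substrate, was at 8.36, 8.62 and 8.89 in CSF1-Fc livers, against 9.31 and 9.38 in PBS livers. Its groups did not overlap, and its log2 fold change of -0.72 (standard error 0.18) had a limma adjusted p of 0.0638, against 0.0469 when adjusted over genes and 0.0152 in the refit.

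The sodium-dependent and the sodium-independent routes for bile acids were set side by side through *Slco1b2* and *Slc10a1*, a pair also chosen after the values were seen. *Slco1b2* minus *Slc10a1* was -2.90, -2.86 and -2.46 log2 units in CSF1-Fc livers, against -1.86 and -1.59 in PBS livers. The change of *Slco1b2* was -1.02 log2 units beyond that of *Slc10a1*, with no overlap between the groups. *Slc10a1* lay at 12.01 to 12.66 and *Slco1b2* at 9.14 to 10.96, where the highest value of any gene was 13.63. Whether this difference of level in the range of the array had a part in the unequal changes was not tested. The exact two-sided permutation p was 0.2, again the smallest that this form of the test can give.

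Both *Slc10* genes with a positive change lacked overlap but did not pass the test. *Slc10a2*, the bile salt carrier of ileum and bile duct cells, was at 7.63, 7.59 and 8.32 in CSF1-Fc livers, against 7.42 and 7.45 in PBS livers. Most of its log2 fold change of 0.41 (95% interval -0.18 to 0.99, limma adjusted p = 0.382) lay in CSF1-Fc replicate 3. The 7 measured cholangiocyte markers had 0 calls (0 higher and 1 lower at an unadjusted limma p below 0.05), and their summed intensity was 177 to 224 in CSF1-Fc livers, against 265 in each PBS liver. Only *Sox9*, at a mean of 6.68 and a log2 fold change of -0.71, was not dim among these markers. *Sox9* thus weighs most in the sum, which does not measure the number of bile duct cells. *Slc10a7*, which acts in calcium handling and in glycosylation and not in bile salt transport, was at 7.76, 7.91 and 7.52 in CSF1-Fc livers, against 7.37 and 7.24 in PBS livers. Its log2 fold change of 0.42 (95% interval 0.04 to 0.81) had a limma adjusted p of 0.175. The steroid sulfate carrier *Slc10a6* and the neuronal *Slc10a4* were dim, at means of 3.69 and 3.18, with log2 fold changes of -0.13 and -0.25. A row that carries *Slc10a3* together with a predicted gene was at 6.85, 7.05 and 6.46 in CSF1-Fc livers, against 6.54 and 6.34 in PBS livers, and overlapped between the groups.

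The organic anion branch of *Slc22* held the carrier with the lowest adjusted p. *Slc22a7* (OAT2) carries cyclic nucleotides, creatinine and salicylate at the sinusoidal side of hepatocytes. It was at 7.91, 7.75 and 7.70 in CSF1-Fc livers, against 8.85 and 9.07 in PBS livers. Its replicates lay within 0.21 log2 units in CSF1-Fc livers and 0.22 in PBS livers, close together beside the gap between the groups. The log2 fold change was -1.17 (standard error 0.14, 95% interval -1.52 to -0.83, limma adjusted p = 0.0043), or 2.26 times lower. *Slc22a30*, a rodent member of the anion branch, was at 9.81, 10.05 and 9.83 in CSF1-Fc livers, against 10.47 and 10.71 in PBS livers. It was 1.62 times lower, with a log2 fold change of -0.69 (standard error 0.15, limma adjusted p = 0.0403) and no overlap.

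A further row shared by *Slc22a28* and *Slc22a30* was at 10.12, 10.16 and 10.23 in CSF1-Fc livers, against 10.74 and 10.80 in PBS livers. The shared row had a log2 fold change of -0.60 (limma adjusted p = 0.0326), while a dim row shared by *Slc22a30* and *Slc22a29* had -0.05 (limma adjusted p = 0.875). These 3 genes are near copies of each other, so the part of each in such rows is uncertain. The other 9 genes of the anion branch were dim, with means of 2.74 to 4.62 and log2 fold changes of -0.48 to 0.14. They include the kidney carriers *Slc22a6* (OAT1) and *Slc22a8* (OAT3), the urate carrier *Slc22a12* (URAT1), *Slc22a13*, *Slc22a19*, the olfactory *Slc22a20*, *Slc22a22*, *Slc22a26* and *Slc22a27*. The most negative of them was *Slc22a12*, at 4.54, 4.41 and 4.34 in CSF1-Fc livers, against 5.00 and 4.81 in PBS livers (log2 fold change -0.48, limma adjusted p = 0.0951). A row shared by *Slc22a13b* and *Slc22a13* was at 4.54, 4.45 and 4.30 in CSF1-Fc livers, against 4.79 and 5.49 in PBS livers. Its log2 fold change was -0.71 (limma adjusted p = 0.118), against -0.34 for the row of *Slc22a13* alone.

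Of the 5 genes in the cation and zwitterion branch, 1 was called lower and 0 higher (3.95% and 8.34% of all genes). *Slc22a4* (OCTN1) carries ergothioneine, an antioxidant from the diet. It was at 5.13, 4.86 and 5.29 in CSF1-Fc livers, against 5.78 and 5.97 in PBS livers, with no overlap. Its log2 fold change was -0.78 (standard error 0.17, 95% interval -1.19 to -0.38, limma adjusted p = 0.0389), or 1.72 times lower, at a level where CSF1-Fc replicate 2 fell under 5. *Slc22a15*, a zwitterion carrier, was at 5.79, 6.03 and 6.17 in CSF1-Fc livers, against 6.69 and 6.61 in PBS livers. The groups did not overlap, and its log2 fold change of -0.65 (standard error 0.15) had a limma adjusted p of 0.0537. The kidney cation carrier *Slc22a2*, the testis carnitine carrier *Slc22a16* and the carnitine carrier *Slc22a21* were dim, with log2 fold changes of -0.07, -0.30 and 0.20.

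In the remaining *Slc22* genes, *Slc22a23*, whose substrate is not settled, was lower in CSF1-Fc livers. It was at 9.16, 9.27 and 9.30 in CSF1-Fc livers, against 9.91 and 9.92 in PBS livers, the smallest spread of the 8 called carriers in both groups. Its log2 fold change was -0.67 (standard error 0.12, 95% interval -0.97 to -0.37, limma adjusted p = 0.0229), or 1.59 times lower. *Slc22a18*, an imprinted gene of the family, was at 10.18, 10.22 and 10.32 in CSF1-Fc livers, against 10.81 and 10.62 in PBS livers. There was no overlap, and its log2 fold change of -0.48 (standard error 0.13) had a limma adjusted p of 0.0860, against 0.0646 when adjusted over genes and 0.0333 in the refit.

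*Slc22a17*, a receptor for lipocalin 2 and iron carriers bound to it, was at 5.56, 5.96 and 5.43 in CSF1-Fc livers, against 5.16 and 5.24 in PBS livers. It had the most positive change among the 43, with a log2 fold change of 0.45 (95% interval 0.01 to 0.90, limma adjusted p = 0.209). The testis gene *Slc22a14* was dim, at -0.09.

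*Slc47a1* (MATE1) exports organic cations such as metformin and creatinine into bile and was the 1 carrier among the 8 that works outward. It was at 9.12, 9.03 and 9.46 in CSF1-Fc livers, against 10.08 and 10.16 in PBS livers. The groups were separate, and its log2 fold change of -0.92 (standard error 0.17, 95% interval -1.32 to -0.52, limma adjusted p = 0.0214) is 1.89 times lower. *Slc47a2*, its neighbour, was dim at a mean of 3.13, with a log2 fold change of -0.25.

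**Figure D4:**
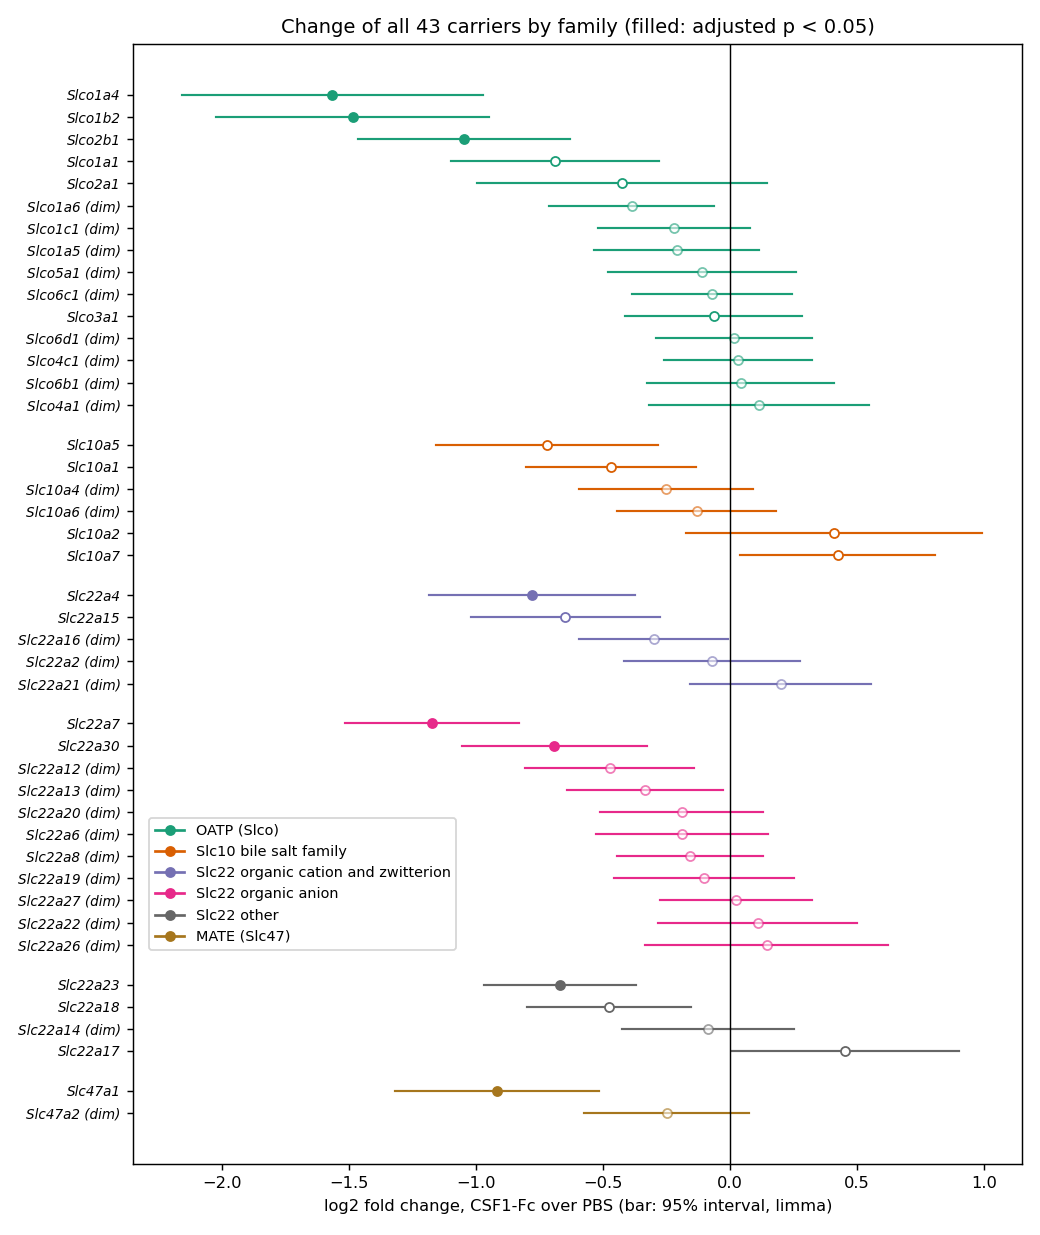
Log2 fold change of CSF1-Fc over PBS (x axis) with its 95% interval from limma for all 43 carriers, grouped and coloured by family, filled where the adjusted p was below 0.05 and marked dim where the mean over all arrays was under 5. The filled points are the 8 called carriers, from -1.57 for *Slco1a4* to -0.67 for *Slc22a23*, and the 3 carriers of mean 5 or more on the positive side, *Slc10a2*, *Slc10a7* and *Slc22a17*, are open.

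The CSF1-Fc livers differed among themselves. For 9 of the 11 carriers with a mean of 8 or more, CSF1-Fc replicate 3 was the highest of the CSF1-Fc livers and so the nearest to PBS, and *Slc22a7* and *Slc22a30* were the exceptions. Among all 4977 genes at that level, this replicate was the highest CSF1-Fc liver for 2396. It was also the highest for 21 of 29 measured genes of proteins that the liver secretes, and it had the lowest summed intensity of macrophage markers among the CSF1-Fc livers, 31935 against 34644 and 34824. What part this liver's cell content had in its carrier levels was not tested.

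The number of calls moved with single arrays. Leaving out a PBS array leaves 1 PBS liver, which is then assumed to vary like the CSF1-Fc livers. Leaving out PBS replicate 2 left 0 of the 8 called by limma (15 carriers were lower at an unadjusted p below 0.05), and leaving out PBS replicate 1 left 1 (*Slc22a7*, adjusted p = 0.0271). The share of all genes called lower was 0.43% and 0.622% in these fits, against 3.95% with all 5 arrays. Without CSF1-Fc replicate 1, *Slc22a7* (0.0194) and *Slco1a4* (0.0244) were called, and *Slco1b2* had an adjusted p of 0.0507. Without CSF1-Fc replicate 2 the only one of the 8 lost was *Slc22a4* (0.0604). Without CSF1-Fc replicate 3 *Slc22a30* was lost (0.0689), and *Slco1a1* (0.0214), *Slc10a5* (0.0293) and *Slc22a15* (0.0413) were added.

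The log2 fold changes over these 5 fits ran from -1.77 to -1.35 for *Slco1a4*, from -1.69 to -1.36 for *Slco1b2* and from -1.28 to -1.06 for *Slc22a7*. *Slc22a23* ran from -0.70 to -0.63. The least steady of the bright carriers was *Slco2a1*, at -0.69 to -0.16. None of the 13 carriers that were called or had a mean of 8 or more changed direction in any of the 14 alternatives.

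**Figure D5:**
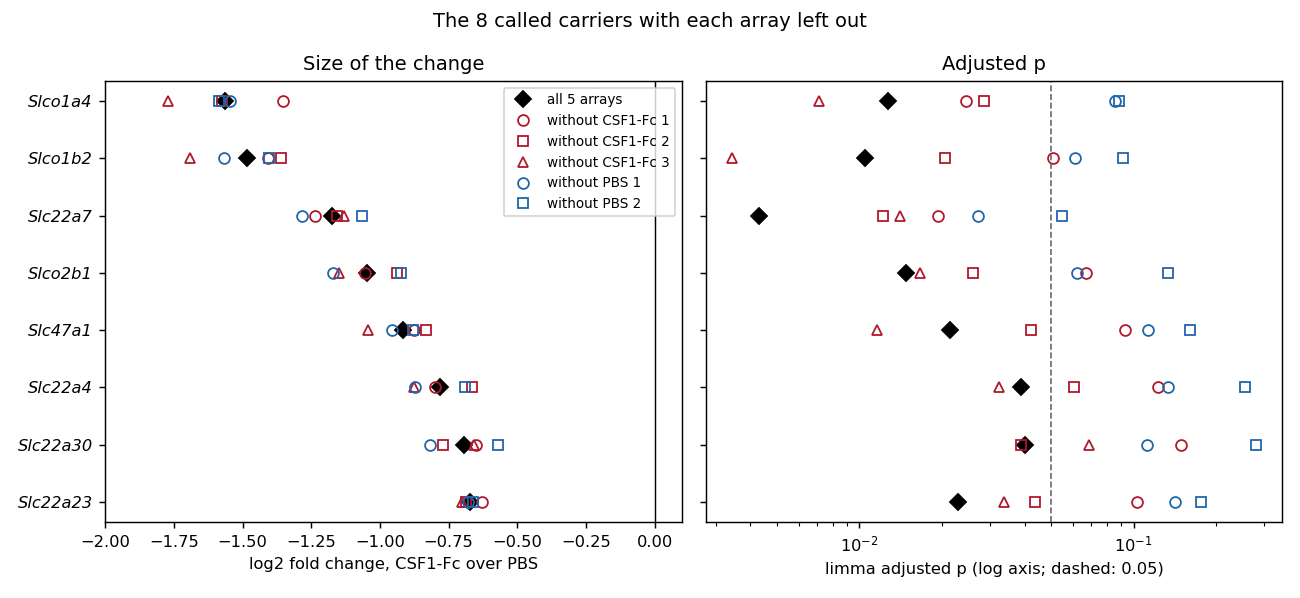
For each of the 8 called carriers, the log2 fold change of CSF1-Fc over PBS (left, x axis) and limma's adjusted p on a log axis (right, dashed line at 0.05), with all 5 arrays (black diamonds) and with each array left out (red for a CSF1-Fc array, blue for a PBS array). The changes stay between -1.77 and -0.57, while leaving out PBS replicate 2 puts all 8 adjusted p above the line, with *Slc22a7* at 0.0550.

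Cell content differed between the groups, and in whole liver fewer hepatocytes among the cells cannot be told apart from less of a transcript in each hepatocyte. The marker counts here stand beside 3.95% lower and 8.34% higher among all genes. Of 18 macrophage markers 17 were higher in CSF1-Fc livers, with a median log2 fold change of 2.42. Their summed intensity was 31935 to 34824 in CSF1-Fc livers, against 6640 and 7184 in PBS livers. All 10 Kupffer cell markers were higher, with a median of 1.97. Of 29 measured genes of secreted liver proteins, none was called (0 higher and 2 lower at an unadjusted limma p below 0.05). Their median change was -0.12, and their summed intensity was 163052 to 177006 in CSF1-Fc livers, against 183462 and 184009 in PBS livers. Of the 29 changes, 25 were negative and 4 positive, from -0.76 (*Itih1*, mean 10.62) to 0.06 (*Ahsg*, mean 13.00). The means of the list reached 13.24, where the highest value of any gene was 13.63. Whether values this near the top of the range understate a loss was not tested. Centring the arrays on these secreted proteins moved the median of all genes to 0.033, against -0.078 without it, and 2.43% of all genes were then called lower and 9.34% higher. Whether centring on genes this near the top of the range removes a difference in hepatocyte content was not tested. With this centring *Slco1a4*, *Slco1b2*, *Slco2b1*, *Slc22a7* and *Slc47a1* were called lower, at log2 fold changes of -1.45, -1.37, -0.94, -1.06 and -0.81. *Slc22a4*, *Slc22a23* and *Slc22a30* were not called there, at log2 fold changes of -0.67, -0.56 and -0.58 and limma adjusted p of 0.0659, 0.0711 and 0.115. Of 11 sinusoidal endothelial markers, which bear on *Slco2a1*, 1 was higher (*Cdh5*, 1.38) and 1 lower (*Clec4g*, -0.74). Their median was -0.33, with 7 negative and 4 positive changes. At an unadjusted limma p below 0.05, 3 were higher and 3 lower. The part of macrophage RNA in the carriers' values was not tested further.

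The carriers stand in a chain that runs through bile acid synthesis and export, and these genes were counted beside them. The counts of the lists that follow stand beside 3.95% lower and 8.34% higher among all genes, and 10.1% lower and 12.7% higher among genes with a mean of 8 or more in either group. Of 14 genes of bile salt and organic ion efflux, 4 were lower, 1 was higher and 9 did not pass the test, with a median log2 fold change of -0.48. *Abcb11*, the bile salt export pump of the canaliculus, was at 10.47, 10.28 and 10.77 in CSF1-Fc livers, against 11.49 and 11.63 in PBS livers (log2 fold change -1.05, limma adjusted p = 0.0157). *Abcb4*, which moves phosphatidylcholine into bile, had a log2 fold change of -1.27 (limma adjusted p = 0.0234), and *Abcc6* and *Abcg2* had -1.06 and -0.81. The exception was *Abcc4*, a sinusoidal exporter of bile salts and cyclic nucleotides that leukocytes and other cells also express. It was at 6.55, 6.62 and 7.10 in CSF1-Fc livers, against 5.29 and 5.46 in PBS livers (log2 fold change 1.38, limma adjusted p = 0.00906). Transcripts of the uptake carrier *Slco1b2* and of the export pump *Abcb11* were thus both lower, while *Abcc4* was 2.60 times higher.

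Of 16 measured genes of bile acid synthesis and conjugation, 8 were lower and 1 was higher, with a median of -0.71. *Cyp8b1*, the enzyme that directs synthesis to cholic acid, had a log2 fold change of -1.08 (limma adjusted p = 0.0197). *Akr1d1*, *Cyp7b1* and *Slc27a5*, of ring reduction, the acidic pathway and conjugation, had -0.96, -0.94 and -0.89. *Cyp7a1*, the rate-limiting enzyme, was the 1 that was higher, at 10.58, 10.42 and 10.66 in CSF1-Fc livers, against 10.03 and 9.86 in PBS livers (log2 fold change 0.61, limma adjusted p = 0.0492). Its call did not hold when any 1 array was left out.

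Among 20 measured regulators of carrier transcription, 3 were lower and 0 higher, with a median of -0.55. They were the nuclear receptors *Nr5a2* (LRH-1), *Nr1i2* (PXR, the xenobiotic receptor) and *Nr1h4* (FXR, the bile acid receptor), at -0.90, -0.85 and -0.75 (limma adjusted p = 0.0449, 0.0236 and 0.0430). *Hnf4a*, a main hepatocyte factor, had -0.48 (limma adjusted p = 0.114), and *Ppara*, the fatty acid receptor, had -1.01 (limma adjusted p = 0.0511). Of the 20 changes, 16 were negative and 4 positive. They ran from -1.25 for *Nr0b2* (limma adjusted p = 0.127) to 0.32 for *Foxa3* (limma adjusted p = 0.282). *Onecut1* was at 11.14 and 7.55 in the PBS livers, so its change of 0.25 is poorly measured.

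*Slco1a1* belongs to the genes that male mice express above females, and 12 others of this kind were measured. Of these, 7 were lower and 0 higher, with a median of -0.79. *Cyp4a12b*, *Elovl3*, *Cyp4a12a* and *Ugt2b38* had -1.32, -1.23, -1.18 and -1.04. Of 10 measured female-biased genes, 0 were called by limma, with 0 higher and 1 lower at an unadjusted p below 0.05. Most female-biased genes were dim, with means of 2.41 to 8.43 and array medians of 3.43 to 3.78. The male-biased genes had means of 8.61 to 12.88, so the counts of these lists cannot be compared. The 3 measured Y-linked genes had log2 intensities of 7.16 to 9.10 in the livers of both groups, and 0 were called by limma, with 0 higher and 1 lower at an unadjusted p below 0.05.

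These counts moved with single arrays as the carriers' counts did. Without PBS replicate 1, 0 efflux genes, 1 synthesis gene, 0 regulators and 2 male-biased genes were lower. Without PBS replicate 2 the numbers were 0, 0, 2 and 1, and without CSF1-Fc replicate 1 they were 0, 1, 1 and 3. Without CSF1-Fc replicate 2 they were 3, 5, 0 and 5, and without CSF1-Fc replicate 3 they were 6, 11, 5 and 5. *Abcc4* was called neither without PBS replicate 1 nor without PBS replicate 2.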

How the data were processed

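The authors hybridized amplified, biotin-labelled liver RNA to 1-colour arrays, checked the scans in Affymetrix Expression Console (1.1, per the submitters' processing notes) and processed them in Partek Genomics Suite. What they deposited is 1 normalized intensity per transcript row, on a linear scale. The methods of background correction and summarisation were not given in the sources used here. RNA extraction reagents differ between the paper and the labels.

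Log2 of the deposited intensities was taken with no pseudocount and no filter. limma 3.58.1 in R 4.3.3 fitted 1 mean per condition to all 35556 rows (lmFit, eBayes, 3 residual and 3.34 prior degrees of freedom). Of the rows, 21218 carried 1 gene symbol, 1881 several and 12457 none. A gene was represented by its brightest row with 1 symbol, and each of the 43 carriers had 1 such row. Dim means a mean log2 under 5 over all arrays. Per-liver values were given for carriers that were called or had a mean of 8 or more in either group, and other carriers of mean 5 or more were added. From each comparison list up to 4 of the largest called changes were named. *Abcg2*, *Hnf4a*, *Ppara*, *Nr0b2*, *Foxa3*, *Onecut1* and the 4 motifs were added after values were seen. Members and lists were chosen with earlier results of these data known. Alternatives were quantile normalization, centring on secreted proteins, a filter on dim rows, a refit on the mean of a gene's rows, moderated and adjusted over genes, each array left out, the replicate number as a block, array weights (statmod 1.5.0), unmoderated variances and a robust variance trend. The same p adjusted over genes was added after seeing the data. The fit was tested on simulated data. The number of arrays limits the precision.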

Additional observations from a re-analysis of the deposited data

How the results depend on the processing

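The 8 carriers called lower (3.95% of all genes) became 9 with quantile normalization (5.22%), 11 on rows of mean 5 or more (9.99% of such genes), 7 with a variance trend and robust moderation (3.58%), 5 centred on secreted proteins (2.43%, median log2 fold change -0.099), 14 in the refit on the mean of a gene's rows (9.08%), 13 with array weights (11.9%) and 0 without moderation (0.489%, 19 carriers at an unadjusted limma p below 0.05). Adjusting the same p over genes, added after seeing the data, gave 11 (5.31%) and, in the lists, 3 endothelial, 1 cholangiocyte and 1 female-biased gene lower. The refit has 5.99 prior degrees of freedom, against 3.34. The carriers higher were 1 with array weights (*Slc10a7*, 0.45) and 0 otherwise. The weights were 4.19, 0.473 and 0.432 for CSF1-Fc replicates 1, 2 and 3, and 1.08 for each PBS array. Results with array weights thus lean mostly on CSF1-Fc replicate 1 among the treated livers. The median was -0.68 on rows of mean 5 or more, which leaves 18 carriers. Leaving out 1 array gave 0 to 10 carriers lower (0.43% to 5.56% of all genes), 0 higher and medians of -0.29 to -0.194. The replicate numbers are shared by both groups, and the labels do not say whether they pair the livers. Deviations of same-numbered livers from their group means correlated at -0.0725 and -0.249. The deviations of the 2 PBS livers mirror each other, so these values cannot decide whether the numbers pair the livers. With the number as a block, 5 carriers were lower (2.56% of all genes), and lists had 2 bile acid synthesis genes lower and 0 higher, 2 endothelial lower and 4 male-biased lower.

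Efflux genes lower were 7 with the mean of rows and 7 with array weights. Without moderation, efflux genes were 0 lower and 0 higher, synthesis genes 1 lower and 0 higher, regulators 0 lower, macrophage markers 6 higher, Kupffer markers 4 higher, endothelial markers 0 lower and 0 higher, secreted proteins 1 lower and male-biased genes 2 lower. Centred on secreted proteins, whose median differed by -0.112 between CSF1-Fc and PBS arrays, synthesis genes lower were 5, regulators lower 1 and endothelial markers lower 0. Quantile normalization gave synthesis genes 0 higher, endothelial markers 3 lower, cholangiocyte markers 1 lower and female-biased genes 1 lower. Rows of mean 5 or more gave 6 regulators, 3 endothelial, 1 cholangiocyte and 1 female-biased gene lower. The mean of rows gave 8 regulators lower, endothelial markers 2 higher and 2 lower, 1 cholangiocyte and 1 female-biased gene lower. Array weights gave 8 regulators lower, endothelial markers 2 higher and 4 lower, 1 cholangiocyte marker, 2 secreted proteins, 11 male-biased and 1 female-biased gene lower. With 1 array left out the ranges were 0 to 6 efflux genes lower and 0 to 1 higher, 0 to 11 synthesis genes lower and 0 higher, 0 to 5 regulators lower and 0 to 1 higher, 15 to 17 macrophage and 8 to 10 Kupffer markers higher, endothelial markers 0 to 1 higher and 0 to 3 lower, 0 to 1 cholangiocyte markers lower, 1 to 5 male-biased and 0 to 1 female-biased genes lower. None of the 13 carriers that were called or had a mean of 8 or more reversed in the 14 alternatives. The causes of these shifts were not tested beyond what each setting's construction shows.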
